A study of Mus musculus with 17 samples.

Results

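Hmgcs1, Idi1, Fdft1, Sqle, Dhcr7, Srebf2 and Insig1 are 7 genes of cholesterol synthesis and its control, and they were taken by name from the 26131 genes of a single-nucleus RNA count table of mouse posterior brain. Each was summed over the nuclei of an animal that carry the same cell type label in the submitters' own annotation, and its level is given as CPM, the UMIs of the gene for every 1000000 UMIs of all genes except Malat1, which the treatments target and which takes a large share of the UMIs of nuclei. A UMI is a molecular tag that counts 1 captured RNA molecule. They were taken as a pathway, with no threshold on a measured value but with earlier results of these data known. On GENCODE vM21 (GRCm38) they lie at chr13:119690379-119708260 (Hmgcs1), chr13:8885501-8892451 (Idi1), chr14:63145150-63179578 (Fdft1), chr15:59315077-59331192 (Sqle), chr7:143823145-143848410 (Dhcr7), chr15:82147181-82205379 (Srebf2) and chr5:28071363-28078662 (Insig1).

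Cells make cholesterol from acetyl-CoA. Hmgcs1 encodes cytosolic HMG-CoA synthase, early in the mevalonate pathway, Idi1 the isomerase that interconverts the isoprenoid building blocks, Fdft1 squalene synthase, the first enzyme committed to sterols, Sqle squalene epoxidase, which oxidises squalene, and Dhcr7 the reductase that acts at the end of the pathway. Srebf2 encodes SREBP2, the transcription factor that switches these enzymes on when membrane sterol is low, and Insig1 encodes an anchor protein that holds SREBP2 in the endoplasmic reticulum when sterol is plentiful and is itself a target gene. Brain cholesterol is made locally because lipoproteins of the blood do not cross the blood-brain barrier. Oligodendrocytes use it for myelin, and astrocytes make it and pass it to neurons on apolipoprotein E particles.

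The study set side by side carriers of an antisense oligonucleotide (ASO) against Malat1, a nuclear long noncoding RNA. The 17 mice, females aged 2.3 months, carried human transferrin receptor (TfR) as a homozygous knock-in in every group, so no group is wild type at that gene. They received 4 weekly intravenous doses of saline (4 mice), of the free Malat1 ASO at 2 mg/kg (4 mice), of anti-TfR:Malat1, the ASO joined to an antibody against TfR, at 50 mg/kg (6 mice), or of OTV:Malat1, the ASO on the oligonucleotide transport vehicle, an antibody-like protein engineered to bind human TfR, at 50 mg/kg (3 mice). The labels give a treatment length of 24 days and a harvest at 72 hours from the final dose. Frozen tissue was dissociated and the nuclei were sorted by a DNA stain into droplet libraries, 1 library for each mouse, so the values are of RNA in nuclei, and males and other brain regions were not sampled.

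The table held 284074 nuclei and 1099241149 UMIs, between 13841 and 18365 nuclei and between 55393588 and 79866411 UMIs in an animal. The deposited metadata give 4 batch numbers without saying which step they refer to, and batch 1 held no OTV:Malat1 animal. Of 273792 distinct barcodes 10044 occurred in more than 1 library, at most 0.623% of the barcodes of a pair, and 16.8% of nuclei were called doublets by the authors and were kept here. The 75282 nuclei labelled oligodendrocytes had a summed level of 18002 to 20649 CPM for 7 oligodendrocyte markers and the 4972 labelled astrocytes 18044 to 21988 CPM for 6 astrocyte markers, over animals. Markers of other cells were present at lower sums: 5 neuron markers summed to 690 to 1608 CPM in oligodendrocytes and to 763 to 1642 CPM in astrocytes. The label neurons (193268 nuclei) also took 7336 of the 7782 nuclei of cluster 13, which Pdgfra and Vcan of oligodendrocyte precursors lead, and 5818 of the 35048 nuclei of cluster 2, which are mostly labelled oligodendrocytes, so values for that label are not of neurons alone. Called doublets were 22.4% of the label neurons, 4.61% of oligodendrocytes and 10.0% of astrocytes. Malat1 itself took 10.2% ± 1.7 (SD, n = 4) of the UMIs of oligodendrocytes after saline and 1.67% ± 0.20 (n = 3) after OTV:Malat1.

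The promoters are shown first, because SREBP2 is known to act through short sterol elements beside CCAAT and GC boxes. Whether these letters bear on the levels described below was not tested. RefSeq promoter windows of the GRCm38.p6 build, from 250 bases before to 50 after a start site, were matched for 5 of the 7 genes (Hmgcs1, Idi1, Insig1, Srebf2 and Dhcr7), as 7 windows, of which Dhcr7 has 3. Sqle and Fdft1 had none in the table. Capitals mark TCACNCCA (a sterol element), CCAAT and GGGCGG (a GC box) on either strand, so that CCAAT on the other strand reads ATTGG and GGGCGG reads CCGCCC. The stretch of each window upstream of the earlier of the RefSeq and GENCODE starts is printed, 5′ to 3′ on the strand of the gene, at chr13:119690101-119690350 (+) for Hmgcs1, chr15:82147019-82147180 (+) for Srebf2 and chr5:28071162-28071362 (+) for Insig1.
Hmgcs1: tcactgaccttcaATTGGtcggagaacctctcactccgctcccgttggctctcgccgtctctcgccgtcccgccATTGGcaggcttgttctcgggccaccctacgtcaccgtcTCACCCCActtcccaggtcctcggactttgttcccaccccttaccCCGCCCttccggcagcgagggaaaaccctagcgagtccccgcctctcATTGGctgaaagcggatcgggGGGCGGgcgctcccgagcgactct
Srebf2: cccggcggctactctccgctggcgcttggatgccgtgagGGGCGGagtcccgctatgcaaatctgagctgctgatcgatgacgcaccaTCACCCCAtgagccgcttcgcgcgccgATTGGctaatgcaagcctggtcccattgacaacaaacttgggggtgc
Insig1: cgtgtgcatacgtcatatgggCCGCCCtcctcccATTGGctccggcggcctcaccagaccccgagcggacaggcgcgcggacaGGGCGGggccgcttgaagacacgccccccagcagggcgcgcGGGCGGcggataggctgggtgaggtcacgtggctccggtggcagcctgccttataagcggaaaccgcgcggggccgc

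TCACNCCA occurred in the windows of Hmgcs1, 137 bases before the RefSeq start site, and of Srebf2, 162 bases before it, that is in 2 of the 7 windows, where 4.36% of all 32851 windows of the same length hold it. The shorter CACNCCA, which lies inside the longer motif, occurred in 18.4% of windows and also in that of Insig1, 8 bases before the start site on the other strand, past the stretch printed. CCAAT was in 5 of the 7 windows (37.4% of all windows), 1 for each of the 5 genes, and GGGCGG in 6 of the 7 (35.7% of all windows), 2 of them of Dhcr7. Among 16 other enzymes of the pathway 13 had 14 windows, of which 1 held TCACNCCA (Msmo1), 12 held CCAAT and 11 held GGGCGG. A match describes these letters and is not a measured binding site.

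Across these 4 cell labels the 5 enzymes and Insig1 were highest in astrocytes, lower in oligodendrocytes and lower again in neurons and microglia, while Srebf2 did not differ between astrocytes and oligodendrocytes beyond the spread between animals and was lower in the other two (mean ± SD over 17 animals of all treatments). For Hmgcs1 the level was 110 ± 26 CPM in astrocytes, 55.5 ± 6.5 CPM in oligodendrocytes, 28.7 ± 4.0 CPM in neurons and 31.7 ± 10.2 CPM in microglia, with animal ranges of 68.6 to 161, 45.4 to 68.5, 22.5 to 39.3 and 14.9 to 50.4 CPM. The lowest astrocyte value for Hmgcs1 lay just above the highest oligodendrocyte value, and the lowest oligodendrocyte value above the highest neuron value, while microglia and neurons overlapped. Idi1 stood at 30.8 ± 10.7 CPM in astrocytes, 16.8 ± 3.0 CPM in oligodendrocytes, 6.87 ± 1.48 CPM in neurons and 7.50 ± 3.75 CPM in microglia. Fdft1 was at 113 ± 28, 77.3 ± 5.1, 36.0 ± 4.1 and 22.0 ± 9.5 CPM in the same order. The plot of levels by label shows the wide spread of astrocytes, which rest on 163 to 473 nuclei in an animal, beside the narrow one of oligodendrocytes with 3721 to 5797.

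**Figure D1:**
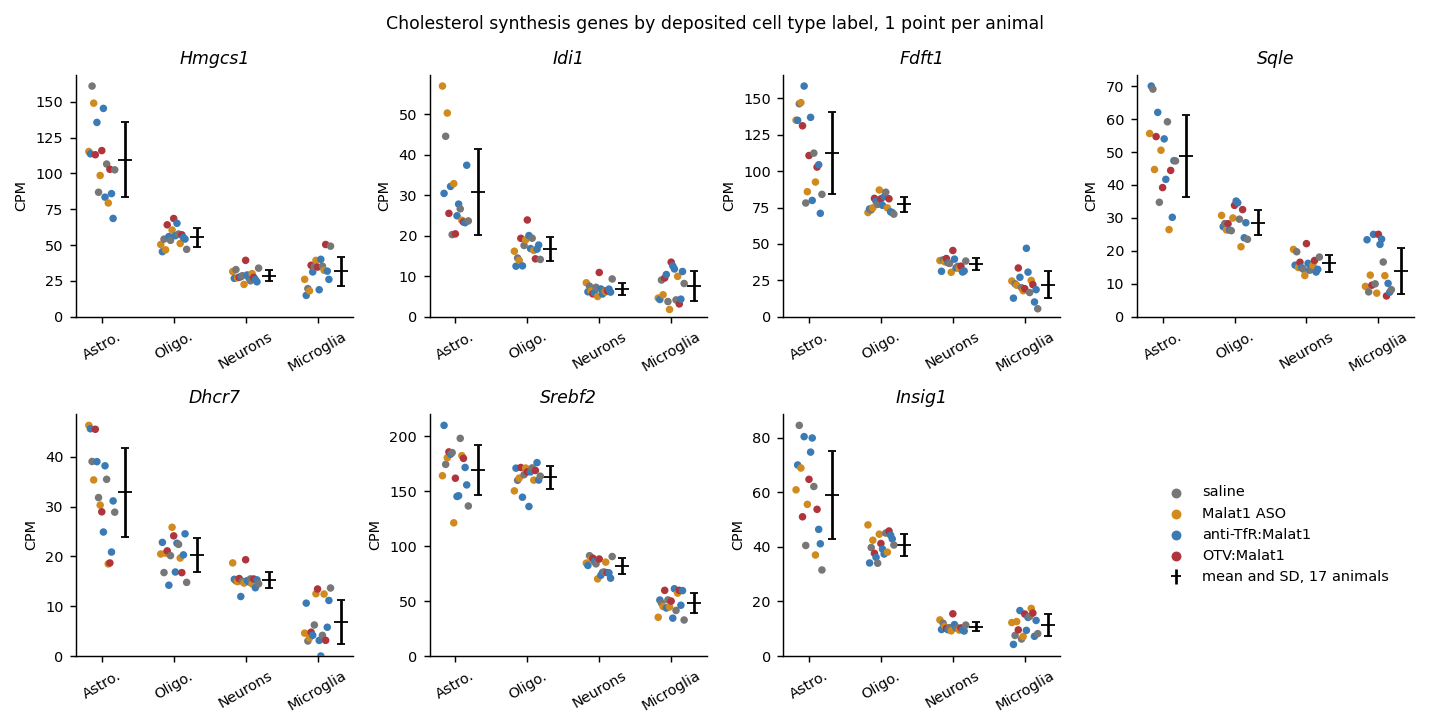
Level of each gene (vertical axis, CPM with Malat1 left out of the total) in 4 cell labels (horizontal axis); each point is an animal, coloured by treatment, and bars give the mean and SD over 17 animals. The astrocyte mean is the highest of the 4 in each panel, for Srebf2 by less than the SD of either glial label.

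Sqle, which consumes squalene, was at 48.9 ± 12.5 CPM in astrocytes, 28.6 ± 3.9 CPM in oligodendrocytes, 16.2 ± 2.6 CPM in neurons and 13.9 ± 7.0 CPM in microglia. Dhcr7, the last enzyme of the group, differed least of the 5 enzymes between oligodendrocytes (20.3 ± 3.4 CPM) and neurons (15.3 ± 1.7 CPM), with 32.9 ± 8.9 CPM in astrocytes and 6.85 ± 4.41 CPM in microglia. Of the regulators, Srebf2 was nearly equal in astrocytes (170 ± 23 CPM) and oligodendrocytes (163 ± 11 CPM), at 81.7 ± 7.1 CPM in neurons, and lowest in microglia (48.3 ± 9.2 CPM), where the highest animal (61.2 CPM) lay below the lowest neuron value (70.2 CPM). Insig1 was at 59.0 ± 16.2, 40.7 ± 4.2, 10.7 ± 1.6 and 11.3 ± 4.1 CPM in astrocytes, oligodendrocytes, neurons and microglia. Perivascular macrophages (657 nuclei), vascular cells (1226) and nuclei labelled glia (225, with 20 or more in 5 animals) gave too few UMIs to be placed: for Hmgcs1 they ranged from 0 to 105, 10.0 to 90.1 and 0 to 136 CPM, and each overlapped its neighbours in the order.

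All 7 genes were higher in astrocytes than in neurons by edgeR's quasi-likelihood test with the animal as a block and Benjamini-Hochberg adjustment over 17878 genes, of which 32.3% were called higher. The fitted difference was 2.19 (log2; SE 0.10) for Insig1, 1.97 (SE 0.13) for Idi1, 1.67 (SE 0.07) for Hmgcs1, 1.39 (SE 0.07) for Fdft1 and 1.36 (SE 0.09) for Sqle. Dhcr7 (0.88, SE 0.10, the largest adjusted p of the 7 at 7.7e-11 by edgeR) and Srebf2 (0.79, SE 0.05) differed least. Each gene was higher in the astrocytes of 17 of 17 animals. The median difference of the 7 genes was 1.39, against -0.11 for all genes tested.

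Oligodendrocytes, too, were above neurons for 7 of 7 genes, where 43.7% of 18390 genes were called higher. Insig1 again differed most (1.89, SE 0.05), followed by Idi1 (1.25, SE 0.07), Fdft1 (1.07, SE 0.04), Srebf2 (0.96, SE 0.04), Hmgcs1 (0.92, SE 0.05) and Sqle (0.79, SE 0.06), all on the log2 scale. Dhcr7 differed by 0.37 (SE 0.05, edgeR adjusted p = 1.1e-07), and the smallest ratio of CPM within an animal was 1.02. Without called doublets, or with only the nuclei whose label and cluster go together, the 7 genes were again called higher than in neurons in both glial labels. The comparisons of the 2 glial labels with neurons use the same neuron values and are not independent. CPM are shares of the UMIs of a label, and the labels differ in depth. On average a neuron-labelled nucleus held 4182 to 6620 UMIs in an animal and an oligodendrocyte nucleus 1097 to 1836. The differences between labels are thus in the share of RNA, and molecules per nucleus were not compared.

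Astrocytes exceeded oligodendrocytes for 6 of 7 genes (35.1% of 12702 genes were called higher and 33.4% lower). Hmgcs1 differed by 0.98 (SE 0.08) and was higher in 17 of 17 animals, and Idi1 differed by 0.95 (SE 0.13) and was higher in 16. Sqle (0.80, SE 0.09, 17 animals), Dhcr7 (0.72, SE 0.11, 16 animals), Fdft1 (0.54, SE 0.07, 14 animals) and Insig1 (0.52, SE 0.09, 14 animals) followed on the same log2 scale. Srebf2 differed by 0.03 (SE 0.05, edgeR adjusted p = 0.54), with 11 animals higher in astrocytes and 6 higher in oligodendrocytes. Its sign depended on the scaling: -0.03 with DESeq2 or its size factors in edgeR, and -0.15 without a filter on low counts, where the adjusted p was 0.011 and the median of all genes moved to -0.16.

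Of 16 other enzymes of the pathway, 15 were higher and 1 lower in astrocytes than in neurons, where 32.3% of all genes were called higher and 40% lower. Msmo1, a sterol demethylase, differed by 2.83 (SE 0.07) and Nsdhl, which acts with it, by 2.25 (SE 0.08), while Cyp51 differed by 0.97 (SE 0.07) and Fdps by 1.20 (SE 0.11). Ggps1, whose product leaves the sterol branch for protein prenylation, was lower (-0.16, SE 0.06). Between oligodendrocytes and neurons, where 43.7% of all genes were called higher and 46.7% lower, 11 were higher and 3 lower, so the share called in either direction was near that of all genes (90.4%). Tm7sf2 was among the lower genes (-0.29, SE 0.07), with Msmo1 at 1.64 (SE 0.05), Fdps at 1.42 (SE 0.05) and Cyp51 at 0.55 (SE 0.05). The level of Msmo1 was 234 ± 67 CPM in astrocytes, 86.7 ± 11.2 CPM in oligodendrocytes and 27.3 ± 4.3 CPM in neurons. Between astrocytes and oligodendrocytes 13 were higher and 1 lower (35.1% and 33.4% of all genes): Ebp, a sterol isomerase, was lower in astrocytes (-0.92, SE 0.14), and Fdps differed by 0.01 (SE 0.10, edgeR adjusted p = 0.96).

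Genes of sterol sensing and uptake were read in the same tests, against the same shares of all genes. Srebf1, which encodes the SREBP of fatty acid synthesis, was higher in astrocytes than in neurons by 3.02 (SE 0.12) and in oligodendrocytes than in neurons by 2.61 (SE 0.06). Of the 9 of 10 genes of that list tested between astrocytes and neurons, 5 were higher and 0 lower, a smaller share called than the 72.3% of all genes called in either direction, while the escort protein Scap (-0.12, SE 0.08), the protease genes Mbtps1 (-0.09) and Mbtps2 (-0.06) and Insig2 (0.08) did not pass. Between oligodendrocytes and neurons 6 of the 10 genes were higher and 1 lower, where 43.7% and 46.7% of all genes were. The lower gene was Mylip, a ubiquitin ligase of sterol uptake (-1.37, SE 0.05). By cluster, Mylip was at 28.4 CPM in astrocyte cluster 14, 13.7 CPM in neuron cluster 1 and 5.51 CPM in oligodendrocyte cluster 0. Of 10 genes of efflux, transport and turnover, 8 were higher and 2 lower in astrocytes than in neurons, led by Apoe (4.57, SE 0.05) and Abca1 (3.66, SE 0.06), and the lower 2 were Abcg1 (-1.52, SE 0.12) and Cyp46a1 (-0.74, SE 0.11), the latter the enzyme by which neurons turn cholesterol over. Of 7 fatty acid genes, 6 were higher in astrocytes and 7 in oligodendrocytes than in neurons, among them Acsl3 (3.74 and 1.80) and Scd2 (2.24 and 2.79).

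Over the 20 clusters deposited by the authors the astrocyte cluster 14 and the oligodendrocyte clusters 0, 2 and 15 held the highest levels of each gene but Dhcr7, which was at 21.2 CPM in neuron cluster 4, beside 21.2 CPM in cluster 0 and 18.4 CPM in cluster 2. The clusters were made from these same nuclei, and these genes may have been among those used, so the levels are a description. Cluster 14, which holds 4793 of the 4972 astrocytes together with 1203 vascular and 1147 neuron-labelled nuclei, had 85.3 CPM of Hmgcs1, 44.5 of Insig1 and 144 of Srebf2, and without called doublets 103 CPM of Hmgcs1. The clusters 0, 2 and 15, mostly labelled oligodendrocytes, had 53.0, 48.8 and 65.8 CPM of Hmgcs1 and 41.8, 41.7 and 39.5 CPM of Insig1. The cluster led by precursor genes (13) lay below them, with 22.5 ± 5.8 CPM of Hmgcs1, 13.2 ± 3.0 of Insig1 and 60.8 ± 12.2 of Srebf2 over 17 animals, beside 642 ± 84 CPM of Pdgfra. For Sqle it was nearer to them, at 21.6 CPM against 28.3, 26.9 and 31.6 CPM in clusters 0, 2 and 15. Cluster 9, labelled neurons, was lowest for Hmgcs1 (10.6 CPM), Idi1 (3.42 CPM) and Sqle (6.24 CPM).

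**Figure D2:**
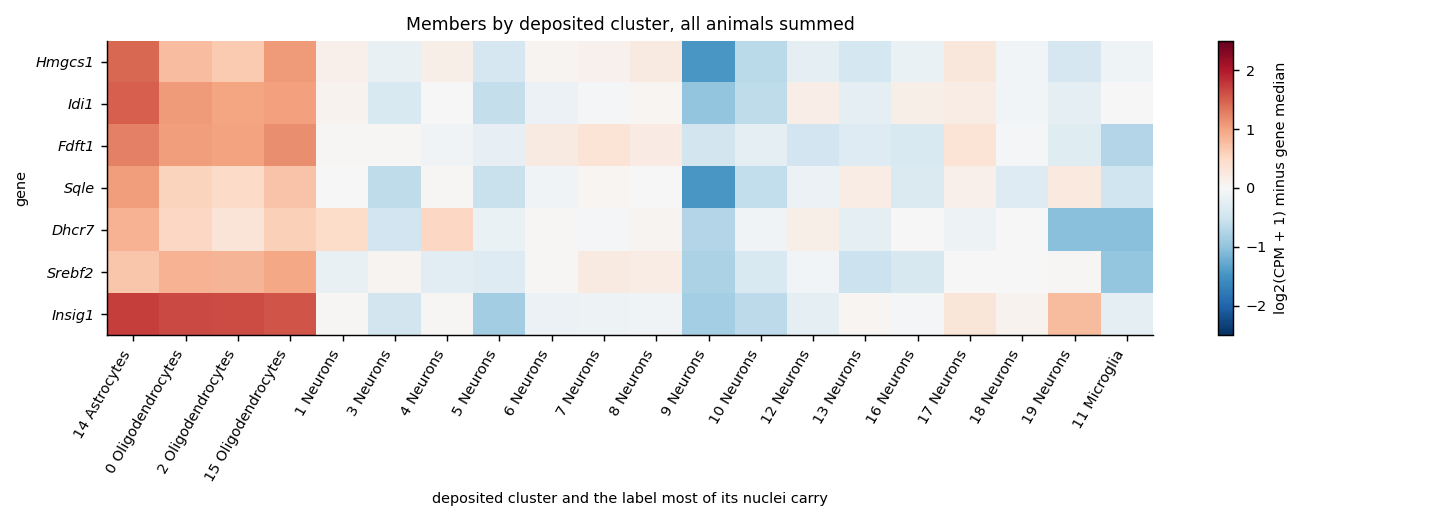
Heat map of the 7 genes (rows) over the deposited clusters (columns, named by number and the label most of their nuclei hold), all animals summed; colour is log2(CPM + 1) minus the gene's median over the clusters. Clusters 0, 2, 14 and 15 stand above the median for the 7 genes and cluster 9 below it.

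Over the 19 clusters with 500 or more nuclei, the 21 pairs of the 7 genes had correlations of log2(CPM + 1) from 0.70 (Insig1 and Dhcr7) to 0.96 (Idi1 and Insig1), with a median of 0.82. The clusters come from the same 17 libraries and differ in depth, so this describes the profile and no p is given. Among 13782 genes ranked by likeness to the mean standardised profile of the 7, Cyp51 was at rank 3 (r = 0.95) and Msmo1 at rank 6 (0.94). The members themselves held ranks between 2 and 48, Dhcr7 being the last (0.84). Each member is part of that mean profile, so its high rank was favoured in advance and is no support. Outside the pathway lists the closest 5 were Gm13483 (0.92), Gm48740 (0.91), Echdc1 (0.91), BC034090 (0.90) and Ccdc24 (0.90).

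The treatments were compared next, in each label, by the same edgeR test over animals, with all 4 groups in 1 fit and p-values adjusted over all genes tested. Malat1 itself differed from saline by -2.79 (log2, SE 0.19) in oligodendrocytes and -1.65 (SE 0.17) in astrocytes after OTV:Malat1, the only ones of its comparisons to saline in these 2 labels that passed. After anti-TfR:Malat1 the values for Malat1 were -0.61 (SE 0.14) and -0.67 (SE 0.13), and after the free ASO -0.07 (SE 0.16) and -0.05 (SE 0.15). The comparisons to saline use the same 4 animals and are not independent of each other.

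In oligodendrocytes 0 of the 7 genes passed in any of the 4 comparisons. Of 14419 genes, 0.0208% were called for OTV:Malat1 against saline, 0% for anti-TfR:Malat1 against saline, 0% for the free ASO against saline and 0.00694% between the conjugates; at an unadjusted p under 0.05 the count of the 7 was 0 in each by edgeR, against 2.59%, 1.83%, 1.03% and 2.94% of genes. DESeq2 called 0 of the 7 as well. The lowest unadjusted p of the 28 was that of Hmgcs1 after OTV:Malat1, so the details of this gene follow.

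Hmgcs1 in oligodendrocytes was at 54.1, 53.3, 57.7 and 47.0 CPM in the 4 saline animals, 50.4, 46.7, 60.5 and 51.1 CPM after the free ASO, and 64.1, 68.5 and 57.2 CPM after OTV:Malat1. After anti-TfR:Malat1 the lowest, median and highest of 6 animals were 45.4, 55.5 and 65.2 CPM. OTV:Malat1 animals 1 and 2 lay above the 4 saline animals, and animal 3 lay inside their range. The fitted difference of Hmgcs1 to saline was 0.21 (log2, SE 0.10, 95% interval -0.01 to 0.43, edgeR adjusted p = 0.97), with an adjusted p from 0.81 to 1.0 over 15 alternatives, and the matched values within batches 2, 3 and 4, 1 animal against 1, were 0.27, 0.25 and 0.28. Against anti-TfR:Malat1 it was 0.16 (SE 0.10, interval -0.05 to 0.36). Without OTV:Malat1 animal 3 the difference of Hmgcs1 to saline was 0.26, with an unadjusted p of 0.041 and an adjusted p of 0.85 by edgeR.

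Fdft1 in oligodendrocytes was at 73.4, 77.2, 85.6 and 70.5 CPM after saline and at 81.3, 81.0 and 81.1 CPM after OTV:Malat1, a narrow group inside the saline range, with a difference of 0.04 (SE 0.09, interval -0.14 to 0.21). Idi1 was at 14.5, 17.6, 19.4 and 14.1 CPM after saline and 19.4, 23.9 and 14.3 CPM after OTV:Malat1 (0.20, SE 0.17, interval -0.17 to 0.56). Sqle was at 28.3, 26.1, 29.6 and 23.5 CPM after saline and 28.2, 33.8 and 32.5 CPM after OTV:Malat1 (0.18, SE 0.14, interval -0.11 to 0.46). For each of these genes at least 1 OTV:Malat1 animal lay inside the saline range. Dhcr7 differed by 0.12 (SE 0.18), and the regulators Srebf2 (-0.01, SE 0.09, interval -0.21 to 0.19) and Insig1 (0.01, SE 0.12, interval -0.24 to 0.26) were near 0. The plot of levels by treatment shows the groups overlapping in both labels.

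**Figure D3:**
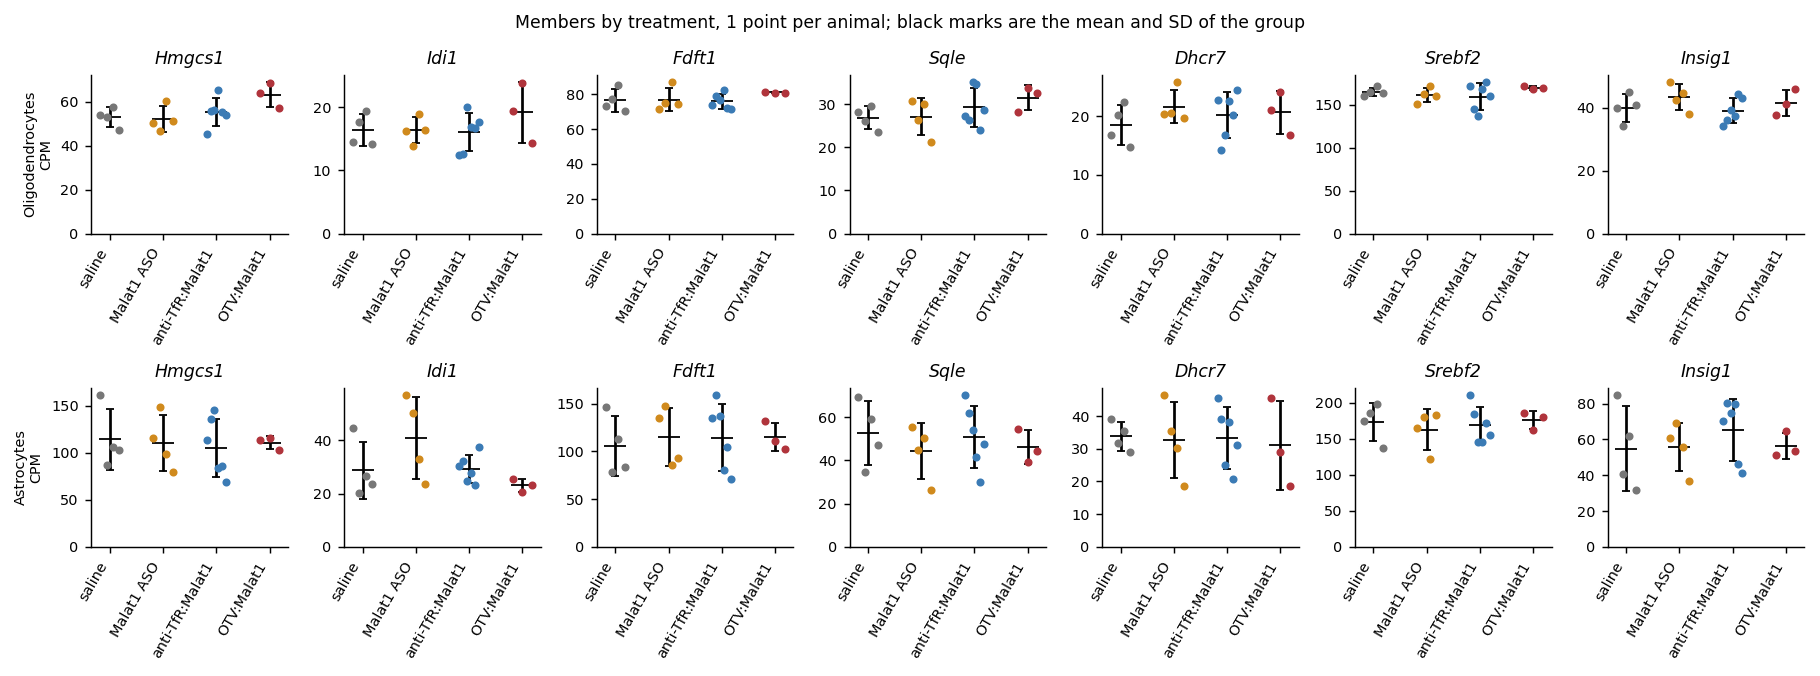
Level of each gene (CPM) in each animal by treatment, oligodendrocytes and astrocytes in separate panels; points are animals and bars are group means with SD. The 4 groups overlap in every panel, and astrocyte points spread more widely than oligodendrocyte points.

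The median difference of the 7 genes in oligodendrocytes was 0.12 after OTV:Malat1 (6 of 7 above 0, where 7539 of 14419 genes were), -0.02 after anti-TfR:Malat1, 0.01 after the free ASO and 0.05 between the conjugates, against medians of all genes of 0.01, 0.00, 0.00 and 0.02. Of the 16 other enzymes 13 lay above 0 after OTV:Malat1 with a median of 0.14, and 0 passed in either direction, with 0 at an unadjusted p under 0.05. After anti-TfR:Malat1 and the free ASO the largest difference of a member was 0.13 (Dhcr7, SE 0.16) and 0.23 (Dhcr7, SE 0.17). In the 4 free ASO animals Dhcr7 was at 20.5, 20.7, 25.9 and 19.7 CPM and in the saline animals at 16.8, 20.2, 22.4 and 14.8 CPM, and the groups overlapped.

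In astrocytes 0 of the 7 genes passed either, where 0.0117%, 0%, 0% and 0.0117% of 8547 genes were called in the same order of comparisons. Unadjusted, 0 of the 7 were under 0.05 by edgeR, against 4.04%, 3.17%, 2.16% and 4.07% of genes, and DESeq2 called 0. Hmgcs1 was at 161, 86.8, 107 and 102 CPM in the saline animals, 115, 149, 98.6 and 79.3 CPM after the free ASO, and 113, 116 and 103 CPM after OTV:Malat1. The lowest, median and highest of 6 animals after anti-TfR:Malat1 were 68.6, 99.8 and 145 CPM. Saline animal 1 stood highest, and OTV:Malat1 lay inside the saline range.

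The difference of Hmgcs1 in astrocytes after OTV:Malat1 was -0.13 (log2, SE 0.23, interval -0.60 to 0.35), and without saline animal 1 it was 0.17. The matched values within batches 2, 3 and 4, 1 animal against 1, were 0.38, 0.12 and 0.0052 for Hmgcs1 and 0.33, 0.060 and 0.77 for Insig1, above 0 in each, while the fitted values of both lay below 0. Batch 1, which holds saline animal 1, has no OTV:Malat1 animal. Saline animal 1 also had the highest saline values of Idi1 (44.5 CPM), Fdft1 (146 CPM) and Insig1 (84.6 CPM), and without it the difference of Insig1 moved from -0.09 to 0.35 after OTV:Malat1 and from -0.07 to 0.38 after the free ASO, and that of Hmgcs1 from -0.20 to 0.09 after anti-TfR:Malat1 and from -0.09 to 0.21 after the free ASO. For Sqle and Idi1 after anti-TfR:Malat1 it moved from -0.05 to 0.20 and from -0.05 to 0.40. These fitted values thus change sign without 1 control library, the saline library of batch 1. With all animals kept, the ratio of mean CPM also differed in sign from the fitted value for Insig1 after OTV:Malat1 (3.4% higher) and after the free ASO (1.7% higher) and for Idi1 after anti-TfR:Malat1 (1.9% higher), and Srebf2 and Dhcr7 after anti-TfR:Malat1 were fitted at 0.02 each while their mean CPM differed by -2.8% and -1.5%. Between the conjugates Srebf2 (-0.01) and Fdft1 (-0.02) were fitted below 0 while their mean CPM differed by 4.2% and 0.55%. The signs of these astrocyte values depend on the measure too.

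Idi1 showed the widest astrocyte differences. It was at 44.5, 20.3, 26.6 and 23.6 CPM in the saline animals, 56.9, 50.3, 32.9 and 23.8 CPM after the free ASO and 25.5, 20.5 and 23.4 CPM after OTV:Malat1, from 6 to 49 UMIs in an animal. Free ASO animals 1 and 2 lay above the saline range and OTV:Malat1 animals inside it. Saline animal 1 set the top of that range, and its batch has no OTV:Malat1 animal. The matched values of Idi1 after OTV:Malat1 within batches 2, 3 and 4, 1 animal against 1, were 0.33, -0.38 and -0.017 (log2). The difference of Idi1 to saline was 0.43 (SE 0.28, interval -0.13 to 0.99) after the free ASO and -0.48 (SE 0.33, interval -1.16 to 0.19) after OTV:Malat1. Without saline animal 1 the former was 0.89 and without free ASO animal 4 it was 0.60, each under 0.05 before adjustment and with an edgeR adjusted p of 1.0. The intervals of the other members after OTV:Malat1 reached from -0.85 to 0.29 for Sqle, -0.79 to 0.50 for Dhcr7, -0.46 to 0.55 for Fdft1, -0.66 to 0.48 for Insig1 and -0.33 to 0.36 for Srebf2, so differences inside them could not be told from 0 in these 3 and 4 animals. Of the 16 other enzymes 14 were tested in astrocytes and 0 passed in any comparison; Mvk, mevalonate kinase, was the 1 under an unadjusted p of 0.05 after OTV:Malat1 (0.92, SE 0.41, edgeR adjusted p = 1.0).

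**Figure D4:**
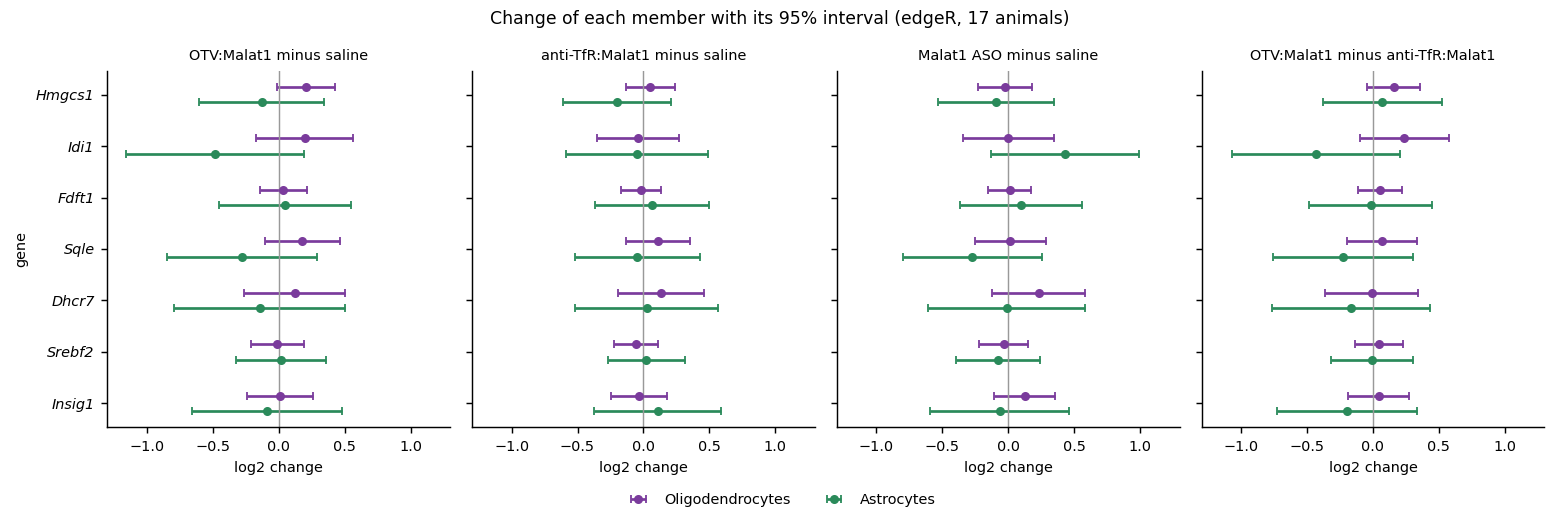
Log2 difference of each gene (horizontal axis, with 95% interval) in the 4 comparisons (panels), in oligodendrocytes and astrocytes (colours), from edgeR. Each interval includes 0, and those of astrocytes are the wider ones.

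Whether a treatment difference itself differed between oligodendrocytes and astrocytes was tested on the within-animal difference of log2(CPM + 1) between the labels. Of 28 exact two-sided permutation tests (7 genes, 4 comparisons), 0 passed after Benjamini-Hochberg adjustment, and the lowest p was 0.14 (adjusted 0.94), for Idi1 between the conjugates. The smallest p the design allows is 0.0571 for OTV:Malat1 against saline, 0.00952 for anti-TfR:Malat1 against saline, 0.0286 for the free ASO against saline and 0.0238 between the conjugates, so a single gene could not pass the adjustment over 28 tests in any of them.

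In the label neurons, where 0% of 20906 genes were called in each comparison, 0 of the 7 genes passed and 0 were under an unadjusted p of 0.05 by edgeR (1.13%, 1.18%, 0.627% and 2.12% of genes were), with 0 by DESeq2. Between the conjugates the 7 differences were all above 0, as were those of the 16 other enzymes, with medians of 0.16 and 0.10, where 11085 of the 20906 genes lay above 0 with a median of 0.01. Against saline, 5 of the 7 lay above 0 after OTV:Malat1 (median 0.08), 0 of 7 after anti-TfR:Malat1 (median -0.10) and 1 of 7 after the free ASO (median -0.07), and of the 16 other enzymes 12, 1 and 3 did, so the gap between the conjugates holds values below saline after anti-TfR:Malat1 as well as values above it after OTV:Malat1. Sqle was at 16.5, 22.2 and 17.1 CPM after OTV:Malat1 and at 13.6 to 16.2 CPM (median 14.6, 6 animals) after anti-TfR:Malat1, so these groups did not overlap, and the difference was 0.25 (SE 0.13, interval -0.02 to 0.52, edgeR adjusted p = 0.99). Dhcr7 did not overlap either, at 15.6, 19.3 and 15.5 CPM against 11.96 to 15.4 CPM, and 2 of the 7 genes thus had OTV:Malat1 above anti-TfR:Malat1 with no overlap, as had 1.4% of the 20906 genes. With batch as a block, Sqle (0.30) and Dhcr7 (0.18) were under an unadjusted p of 0.05 by edgeR, as were 4.58% of genes, and their adjusted p was 0.90. OTV:Malat1 animal 2 had the highest value of the 17 animals for 6 of the 7 genes. Without it the difference of Sqle was 0.16, of Dhcr7 0.09, of Fdft1 0.12 (0.16 with it), of Hmgcs1 0.01 (0.15 with it), of Insig1 0.00 (0.18 with it) and of Idi1 -0.07 (0.21 with it).

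In microglia 4 of the 7 genes passed the filter on low counts (Hmgcs1, Fdft1, Sqle and Srebf2) and 0 were called, where 0.011%, 0%, 0% and 0% of 9104 genes were. Srebf2 was at 48.3, 51.1, 41.5 and 32.8 CPM after saline and 59.8, 50.0 and 59.8 CPM after OTV:Malat1, from 11 to 41 UMIs in an animal (0.31, SE 0.24, interval -0.17 to 0.80). The other 3 tested members differed by 0.22 (Hmgcs1, SE 0.33), 0.48 (Sqle, SE 0.51) and 0.49 (Fdft1, SE 0.43), so 4 of 4 lay above 0 after OTV:Malat1, with a median of 0.40 where that of all genes was 0.01. After anti-TfR:Malat1 3 of 4 and after the free ASO 2 of 4 lay above 0, with medians of 0.27 and -0.02. The summed level of the 7 genes in microglia includes those that did not pass the filter. It was 118 to 133 CPM after saline and 117 to 167 CPM after the free ASO. After anti-TfR:Malat1 it was 116 to 181 CPM and after OTV:Malat1 161 to 171 CPM. The OTV:Malat1 animals thus lay above the saline animals and inside the range of anti-TfR:Malat1, while each single gene overlapped between OTV:Malat1 and saline. The share of all genes without such an overlap was not counted in microglia, so the separation of the sum is only a description. In vascular cells the sum did not overlap either between the free ASO (253 to 433 CPM) and saline (126 to 231 CPM). That sum rests on 53 to 86 nuclei in a free ASO animal and 65 to 119 in a saline animal. It includes genes that did not pass the filter on low counts. The share of all genes without an overlap was not counted in vascular cells, so this too is only a description. In vascular cells 1 gene (Srebf2) and in perivascular macrophages 0 were tested, and 0 were called, as were 0% of 3312 and 0% of 1418 genes. At an unadjusted p under 0.05 the count of members was 0 in these labels too, by edgeR, where between 2.26% and 4.06% of genes in microglia, between 2.42% and 5.13% in vascular cells and between 3.24% and 5.15% in perivascular macrophages were, so that 0 of so few members says little. DESeq2 called 0.

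The astrocyte levels also differed between the batches of the deposited metadata, which hold 3, 4, 5 and 5 animals of mixed treatment. Fdft1 averaged 139, 129, 105 and 91.0 CPM in batches 1 to 4, Hmgcs1 130, 121, 110 and 87.8 CPM, Sqle 64.9, 49.0, 48.9 and 39.1 CPM, and Dhcr7 43.7, 38.0, 31.6 and 23.6 CPM. For Dhcr7 the lowest animal of batch 1 (39.1 CPM) lay above the highest of batch 4 (31.2 CPM). The same held for Fdft1 (135 against 104 CPM), Hmgcs1 (114 against 103 CPM), Sqle (55.6 against 47.4 CPM) and Insig1 (60.9 against 53.8 CPM). For Idi1 and Srebf2 these batches overlapped. The share of all genes without such an overlap was not counted, so this separation is only a description. Idi1 averaged 44.0, 32.1, 26.5 and 26.3 CPM. Insig1 was also highest in batch 1 and lowest in batch 4 but did not fall in order, at 71.8, 60.2, 67.4 and 42.0 CPM. Srebf2 did not follow that order, at 183, 184, 155 and 165 CPM. By an edgeR test of batch beside treatment, chosen after these values were seen, 0 of the 7 genes passed in astrocytes, where 1.38% of 8547 genes did; the lowest adjusted p was 0.091 (Fdft1), and 5 of the 7 were under 0.05 unadjusted, as were 14% of the 8547 genes. Cyp51 and Apoe passed (adjusted p = 0.020 for both).

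In oligodendrocytes 0 of the 7 passed the test of batch (13.1% of 14419 genes did), and in neurons 0 (20% of 20906 genes). Hmgcs1 in oligodendrocytes averaged 50.0, 55.0, 61.7 and 52.9 CPM in batches 1 to 4, so its order differed from that in astrocytes. Other measures moved with batch in astrocytes and also in oligodendrocytes. An astrocyte nucleus held 2184 to 2660 UMIs on average in the animals of batch 1, 1733 to 2308 in batch 2, 1548 to 2116 in batch 3 and 1482 to 2028 in batch 4, and the summed level of 5 neuron markers in astrocytes averaged 815, 1112, 1188 and 1191 CPM. An oligodendrocyte nucleus held 1600 to 1836 UMIs in batch 1 and 1097 to 1549 in batch 4. The neuron marker sum in oligodendrocytes averaged 753, 988.5, 1100 and 1181 CPM in batches 1 to 4. The number of astrocytes in an animal was 386 to 473, 165 to 328, 163 to 331 and 248 to 420 in the same batches, and so did not follow the order of the levels. The part of these measures in the difference of levels between batches was not tested.

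**Figure D5:**
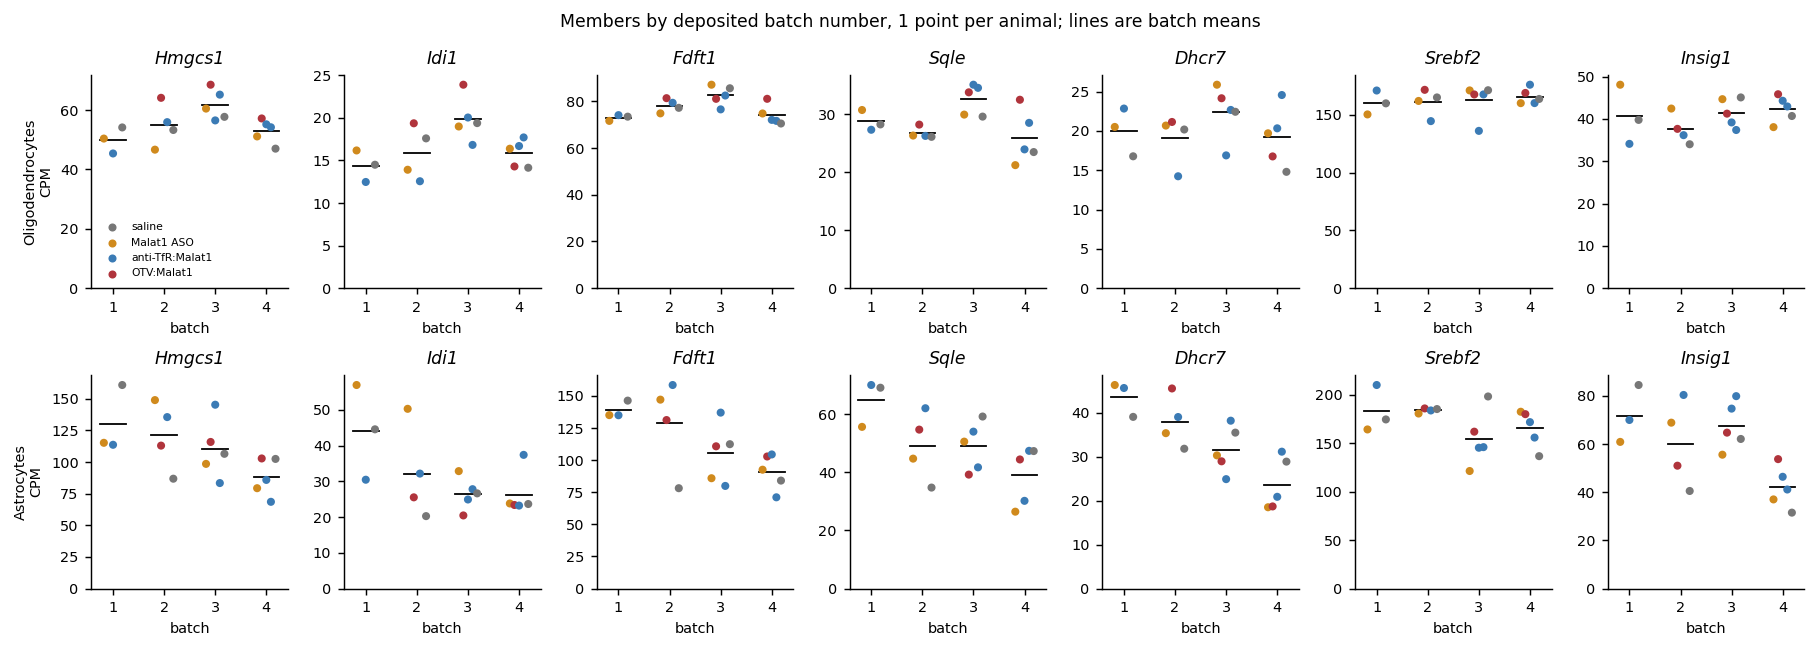
Level of each gene (CPM) in astrocytes and oligodendrocytes by batch of the deposited metadata (horizontal axis); points are animals coloured by treatment. In astrocytes each gene but Srebf2 is highest on average in batch 1 and lowest in batch 4.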

How the data were processed

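Single-nucleus RNA was counted in 17 mice, 1 library each. Per the submitters' processing notes, Cell Ranger 6.0.1, Seurat 4 and the mm10 build were used. The deposited matrix holds raw UMI counts per gene and nucleus, and the deposited metadata give the sample, treatment, batch, cluster, doublet call and predicted cell type (10 further metadata columns were not used). The UMI sum of each of 284074 nuclei matched the total the authors list. Counts were summed per animal and label (20 or more nuclei) and tested with edgeR 4.0.16 (R 4.3.3; filterByExpr, TMM, quasi-likelihood, 17 animals, treatment alone), Benjamini-Hochberg over all genes tested, threshold 0.05. Labels were compared with the animal as a block, because both labels come from the same animal. Oligodendrocyte minus astrocyte differences used log2(CPM + 1), exact permutation in scipy 1.17.1 and adjustment over 28 tests. CPM leave Malat1 out of the total. DESeq2 1.42.0, its size factors, no filter, Malat1 left out, replicate and batch blocks, doublets left out, nuclei whose label and cluster go together, and each animal left out were the alternatives. Intervals are 95% intervals from the fit. The edgeR fit was tried on simulated counts for OTV:Malat1 against saline in oligodendrocytes and astrocytes only. UMI totals per label and animal limit precision: 4120611 to 9483846 in oligodendrocytes and 259868 to 1258327 in astrocytes. The labels do not say more of how the animals were kept than their group. P-values of the treatment tests measure the spread between these animals, each of 1 library. Those of the tests between labels measure the spread of the label difference within animals.

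The 7 genes and the pathway lists were chosen with earlier results of these data known. Named are the 7 genes, list genes past the threshold in a comparison described, always Cyp51, Msmo1, Fdps and Srebf1, the 5 unlisted genes of closest cluster profile (10 or more CPM in at least 1 of the 19 clusters of 500 or more nuclei), and Malat1. Scap, Mbtps1, Mbtps2, Insig2 and Mvk were named after their values were seen. Some genes that the rule names are not reported here. Correlations of deviations between same-numbered animals ran from -0.30 to 0.35 (median 0.14, other pairs -0.043) in oligodendrocytes, -0.14 to 0.27 (0.042, other pairs -0.014) in astrocytes and -0.42 to 0.43 (0.031, other pairs -0.012) in neurons. Since not every pair deviated together, replicate numbers were not used to pair animals. Animals of the same batch had medians of 0.23, 0.080 and 0.17, and batch entered as an alternative.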

Additional observations from a re-analysis of the deposited data

Results flagged for a closer look

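Among 63 groups of 4 to 6 animals (7 genes, 3 labels and the 3 groups of that size), 2 held an animal whose gap to its nearest neighbour took more of the group's range than Dixon's critical value at 95% allows, where chance gives about 5% of groups. In oligodendrocytes Dhcr7 was at 25.9 CPM in free ASO animal 3, and the other 3 animals of the group lay between 19.7 and 20.7 CPM. In neurons Dhcr7 was at 18.7 CPM in free ASO animal 1, above the other 3 animals at 14.5 to 14.9 CPM.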

How the results depend on the processing

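The alternatives are those named under the processing. The counts of called members kept their side of the threshold under each alternative run, 0 by treatment and, between labels, 7, 7 and 6 higher (astrocytes over neurons, oligodendrocytes over neurons, astrocytes over oligodendrocytes), except that without a filter on low counts 1 gene, Srebf2, was called lower in astrocytes than in oligodendrocytes (-0.15, where 0 were called). Srebf2 also changed sign to -0.034 with DESeq2 and to -0.034 with its size factors. Without the filter the median of all genes moved to -0.39, -0.38 and -0.16 in these comparisons, and with DESeq2 size factors to -0.16, -0.14 and -0.08. With replicate numbers as a block, a pairing that not every same-numbered pair of animals showed, 0 members were called, and Hmgcs1 in astrocytes between the conjugates was -0.21. Between labels, without the animal as a block the counts were again 7, 7 and 6.

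Of the treatment differences of single genes, 1375 values kept their direction or moved by less than their standard error, and 11 reversed. Leaving out 1 animal at a time, astrocyte values after OTV:Malat1 ranged from -0.23 to 0.17 for Hmgcs1 and from -0.25 to 0.35 for Insig1. After anti-TfR:Malat1 they ranged from -0.30 to 0.095 for Hmgcs1, from -0.22 to 0.20 for Sqle and from -0.17 to 0.40 for Idi1, and after the free ASO from -0.26 to 0.21 for Hmgcs1 and from -0.22 to 0.38 for Insig1. The upper ends are those without saline animal 1. In neurons the range after OTV:Malat1 was -0.11 to 0.11 for Hmgcs1 and -0.092 to 0.17 for Insig1, and between the conjugates -0.074 to 0.38 for Idi1, with the lower ends without OTV:Malat1 animal 2. The cause was not tested. Nuclei whose label and cluster go together gave no value for perivascular macrophages and vascular cells. UMI totals limit astrocytes more than oligodendrocytes: 259868 to 1258327 in an animal, against at least 4120611 in oligodendrocytes.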
